A study of Mus musculus with 6 samples.

Results

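The Tcl1 family is a group of small oocyte genes that lie side by side on mouse chromosome 12. Its members here are Tcl1, Tcl1b1, Tcl1b2, Tcl1b3, Tcl1b4 and Tcl1b5, taken by symbol from the deposited expression table, and they make up 6 of its 24255 genes. RNA-Seq compared fully-grown oocytes (FGOs) at the germinal vesicle (GV) stage, immature oocytes that have completed their growth, from wild type (WT) and Lsm14b-KO mice. The Lsm14b-KO mice carried the Lsm14b tm1a(KOMP)Mbp allele, in which a reporter cassette is inserted into the gene of an RNA-binding protein, and the study kept its mice on the C57BL/6J background. Females of both genotypes had received 5 IU of PMSG, a gonadotropin that drives follicle growth, 46 h before oocytes were taken, and their age is not given for this experiment in the sources used here. Each genotype had 3 libraries, each made from 20 oocytes. The sources do not tie a library to an animal, so every p-value below measures the spread between these libraries, which may be partly technical.

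Proteins of the TCL1 family are known as co-activators of the AKT kinases, which they bind directly. TCL1 was first known as an oncogene product of lymphoid tumors, and in mice the Tcl1 protein is a maternal factor that supports the early cleavage divisions of the embryo. Fully-grown oocytes are almost silent in transcription, so the level of an mRNA at this stage reflects what was stored during growth and how long it was kept. The less studied Tcl1b genes are a rodent expansion of the family with known expression in oocytes and early embryos.

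By the positions in the deposited table the 6 genes span 75.7 kb. In the GENCODE vM21 annotation of GRCm38 (the assembly also called mm10), Tcl1b2 lies at chr12:105146014-105155225, Tcl1b1 at chr12:105159690-105166625 and Tcl1b5 at chr12:105176344-105181145. These are followed by Tcl1b3 at chr12:105191043-105195612 and Tcl1b4 at chr12:105201957-105206993, and these 5 genes are on the plus strand. Tcl1 closes the cluster at chr12:105216750-105222793 on the minus strand. The transcript used for each gene had 4 exons, and no other annotated gene overlapped a member.

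The coding sequences are shown because the Tcl1b genes are less alike there than over whole transcripts. Likeness bears on how well sequencing reads can tell the members apart. Each line gives the first 60 bases of the coding sequence (GENCODE vM21, 5′ to 3′) with the start codon in capitals.
Tcl1b2: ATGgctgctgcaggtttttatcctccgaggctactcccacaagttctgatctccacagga
Tcl1b1: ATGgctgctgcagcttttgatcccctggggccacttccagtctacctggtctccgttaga
Tcl1b5: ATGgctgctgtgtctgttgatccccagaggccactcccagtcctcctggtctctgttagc
Tcl1b3: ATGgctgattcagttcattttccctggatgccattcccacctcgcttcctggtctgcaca
Tcl1b4: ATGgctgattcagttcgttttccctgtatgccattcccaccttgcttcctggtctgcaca
Tcl1: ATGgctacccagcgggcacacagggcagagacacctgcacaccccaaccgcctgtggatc
The openings of Tcl1b3 and Tcl1b4 are close to each other, and that of Tcl1 stands apart. Over the whole coding sequence, which ran from 348 to 366 nt, the 10 pairs of Tcl1b genes were 72.5% to 87.6% identical. Each Tcl1b gene was only 52.9% to 57.5% identical to Tcl1. Over whole transcripts the Tcl1b pairs reached 84.1% to 92.6%, so part of the reads could be assigned to more than one of them. Of all stretches of 75 bases in its transcript, Tcl1b3 shared 20.6%, Tcl1b2 18.5%, Tcl1b5 8.77%, Tcl1b1 3.83% and Tcl1b4 0.314% with another Tcl1b gene. Tcl1 shared none. At 150 bases, the length of a read, only Tcl1b2 (3.84%) and Tcl1b3 (3.68%) shared any. How the deposited values split such reads was not tested.

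The region before each gene start is shown because the Tcl1b genes share a paired motif there. The E-box CAGGTG, a letter pattern bound by basic helix-loop-helix factors such as the oocyte factor FIGLA, was searched on both strands in RefSeq promoter windows (GRCm38.p6) of 250 bases before to 50 bases after the start. In the stretches below, read along the gene's strand, capitals mark the motif or its reverse complement CACCTG.
Tcl1b2, chr12:105146937-105146983, plus strand: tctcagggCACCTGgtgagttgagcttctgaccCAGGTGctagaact
Tcl1b1, chr12:105159608-105159654, plus strand: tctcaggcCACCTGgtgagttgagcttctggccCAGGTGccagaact
Tcl1b5, chr12:105176262-105176308, plus strand: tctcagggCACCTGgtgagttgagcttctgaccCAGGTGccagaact
Tcl1b3, chr12:105190947-105190993, plus strand: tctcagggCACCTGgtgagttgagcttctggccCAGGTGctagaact
Tcl1, chr12:105222745-105222766, minus strand: caggcccaCACCTGgtagtgat
All 5 Tcl1b windows held 2 copies whose starts were 25 bases apart, with the nearer copy from 36 to 65 bases before the RefSeq start, and Tcl1 held 1 copy. The starts are those of RefSeq, and GENCODE places the starts of Tcl1b2, Tcl1b4 and Tcl1 further upstream, so that these stretches lie inside the gene spans given above. Those of Tcl1b4 and Tcl1 overlap a GENCODE exon, and the longer one, that of Tcl1b4, is not printed. Of 32851 promoter windows of mouse genes, 20.2% held the motif, 2.88% held at least 2 copies and 10 windows (0.0304%) held 2 copies at this spacing. These 10 include the 5 Tcl1b windows, from which the spacing was taken. The count is therefore no independent measure of how rare the pair is. The wider pattern CANNTG, which includes CAGGTG, was in 72.3% of windows. The TATA-box letters TATAAA, found in 13.6% of windows, were in no window of the family. The homeobox pattern TAATTG was in 8% of windows and likewise in none of the family's. The 250 bases before the start were 58% to 94% identical between Tcl1b genes and 43.2% to 53.6% between a Tcl1b gene and Tcl1. A letter match does not show that a factor binds.

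The study also mapped positions of LSM14B on oocyte RNA by LACE-Seq, a crosslinking method, and 3 of the 20-base sequences it lists for such positions come from members. They are shown as places to look in the transcripts described here. The list was available here only in part, so nothing can be read from a member without an entry. The paper reports such positions on a very large number of mRNAs, so an entry alone does not set a member apart.
Tcl1b2, coding sequence: gatgaccagatacccccagg
Tcl1b1, coding sequence: tgggtgacacagagcaactg
Tcl1b1, transcript outside the coding sequence: tgttgagttctcagtcattc
Each of the 3 sequences was found in the GENCODE transcript of that member and in no other member's. The Tcl1b1 sequence outside the coding sequence also lies in the RefSeq promoter window of Tcl1b1. Its first bases come before the RefSeq start.

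Expression is given as FPKM, fragment numbers per length of transcript and per total of mapped fragments. Over all genes the FPKM summed to between 1141324 and 1244182 in WT. The Lsm14b-KO sums were 1029728 for replicate 1, 564671 for replicate 2 and 676656 for replicate 3. Lsm14b-KO replicates 2 and 3 thus stood apart from the other 4 libraries, and results are given below also with the libraries scaled to 1 sum. Lsm14b itself, in replicate order, was at 2.77, 3.98 and 1.72 FPKM in WT. In Lsm14b-KO it was at 0 FPKM for replicates 1 and 2 and at 0.10 FPKM for replicate 3. All 11 oocyte markers reached 1 FPKM in at least 1 library, with summed levels of 43277 to 54459 FPKM in WT and 27986 to 70286 FPKM in Lsm14b-KO. Most of this sum was Dppa3. In the fit 8 of the 11 were higher and 3 lower in Lsm14b-KO, while 3401 of all 6398 tested genes were fitted lower. Nobox (log2 fold change 2.25, limma adjusted p = 0.0064) and Ddx4 (1.35, limma adjusted p = 0.005) were called higher, as were 6.38% of all tested genes. Ddx4 reached 1 FPKM only in Lsm14b-KO libraries, so the filter kept it through the group where it was high. Of 10 cumulus and granulosa cell markers, 3 reached 1 FPKM, with sums of 9.68 to 13.5 FPKM in WT and 6.13 to 9.96 FPKM in Lsm14b-KO, and Amh, Foxl2, Inhba and Inhbb were at 0 throughout. Of these 3, Cyp19a1 was lower in Lsm14b-KO (log2 fold change -0.98, limma adjusted p = 0.0426), while Fshr and Inha had log2 fold changes of 0.73 and 0.38 (limma adjusted p of 0.0923 and 0.301). All 5 red blood cell markers were at 0 in every library, and none of 7 T and B cell markers, cells in which Tcl1 is also used, reached 1 FPKM.

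The members were abundant in the WT oocyte. Together their 6 genes made up 1.97%, 1.99% and 2.36% of the FPKM sum in the WT libraries. In order of the WT mean, Tcl1b1 stood at 8128 ± 133 FPKM, Tcl1b2 at 6527 ± 364 FPKM and Tcl1 at 5681 ± 1288 FPKM (mean ± SD, n = 3, here and below). Tcl1b3 followed at 2491 ± 119 FPKM, Tcl1b4 at 1745 ± 69.1 FPKM and Tcl1b5 at 350 ± 38.3 FPKM. Neighbours in this order did not overlap between WT libraries, other than Tcl1b2 and Tcl1. Ranked among all genes of the table, Tcl1b1 was between the 27th and the 30th in the WT libraries, and Tcl1b5, the lowest, between the 327th and the 391st. FPKM compares genes per length, and here the Tcl1b transcripts hardly differed in length, at 1009 to 1055 nt.

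In Lsm14b-KO oocytes this order changed, since Tcl1b1 fell below both Tcl1b2 and, on average, Tcl1. In replicate order, as for each gene below, Tcl1b1 was at 8158, 7983 and 8245 FPKM in WT and at 3083, 1895 and 1880 FPKM in Lsm14b-KO. The groups were far apart, and the mean of 2286 ± 690 FPKM in Lsm14b-KO was 0.281 of that in WT. The log2 fold change was -1.87 (SE 0.29, limma adjusted p = 0.00561 over 6398 tested genes), on the log2(FPKM + 1) scale used throughout.

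Tcl1b3 and Tcl1b5 fell to a similar degree. Tcl1b3 was at 2406, 2439 and 2627 FPKM in WT and at 1026, 603 and 626 FPKM in Lsm14b-KO. Its log2 fold change was -1.77 (SE 0.31, limma adjusted p = 0.00859). Tcl1b5, the member with the lowest level, was at 316, 341 and 392 FPKM in WT and at 137, 88.9 and 84.8 FPKM in Lsm14b-KO. Its log2 fold change was also -1.77 (SE 0.31, limma adjusted p = 0.00888). For both genes every Lsm14b-KO library lay below every WT library, and Lsm14b-KO replicate 1 was the highest of its group. Leaving out WT replicate 1, WT replicate 2, WT replicate 3 or Lsm14b-KO replicate 3 moved the limma adjusted p of Tcl1b3 just past 0.05, to at most 0.0596, and all but the first of these did so for Tcl1b5, to at most 0.0591.

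Tcl1b4 fell less. It was at 1699, 1712 and 1824 FPKM in WT and at 1104, 718 and 672 FPKM in Lsm14b-KO, again without overlap. The mean went from 1745 ± 69.1 FPKM to 831 ± 237 FPKM, a log2 fold change of -1.10 (SE 0.30, limma adjusted p = 0.0368). This call did not hold when libraries were scaled to 1 FPKM sum (log2 fold change -0.41, limma adjusted p = 0.135), nor in 5 of the 6 fits that left out 1 library.

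Tcl1b2, the member nearest to the outer end of the cluster, did not pass the test. It was at 6764, 6108 and 6709 FPKM in WT and at 6005, 3284 and 3956 FPKM in Lsm14b-KO. The groups did not overlap, but Lsm14b-KO replicate 1 was close to the lowest WT library while the other two were well below. The log2 fold change was -0.61 (95% interval -1.29 to 0.07, limma adjusted p = 0.160). Without Lsm14b-KO replicate 1 it was -0.86 (limma adjusted p = 0.00879). As a share of all FPKM, Tcl1b2 hardly moved: it took 0.544%, 0.521% and 0.588% in WT and 0.583%, 0.582% and 0.585% in Lsm14b-KO.

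Tcl1, the founding member, did not pass the test either, and its groups overlapped. It was at 5209, 4695 and 7138 FPKM in WT and at 2171, 4660 and 5523 FPKM in Lsm14b-KO. Here Lsm14b-KO replicate 1 was the lowest library, whereas it was the highest Lsm14b-KO library for each Tcl1b gene. The log2 fold change was -0.55 (95% interval -1.46 to 0.36, limma adjusted p = 0.320), which leaves room for a fall as large as that of Tcl1b4. Without Lsm14b-KO replicate 1 it was -0.14 (limma adjusted p = 0.638).

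**Figure D1:**
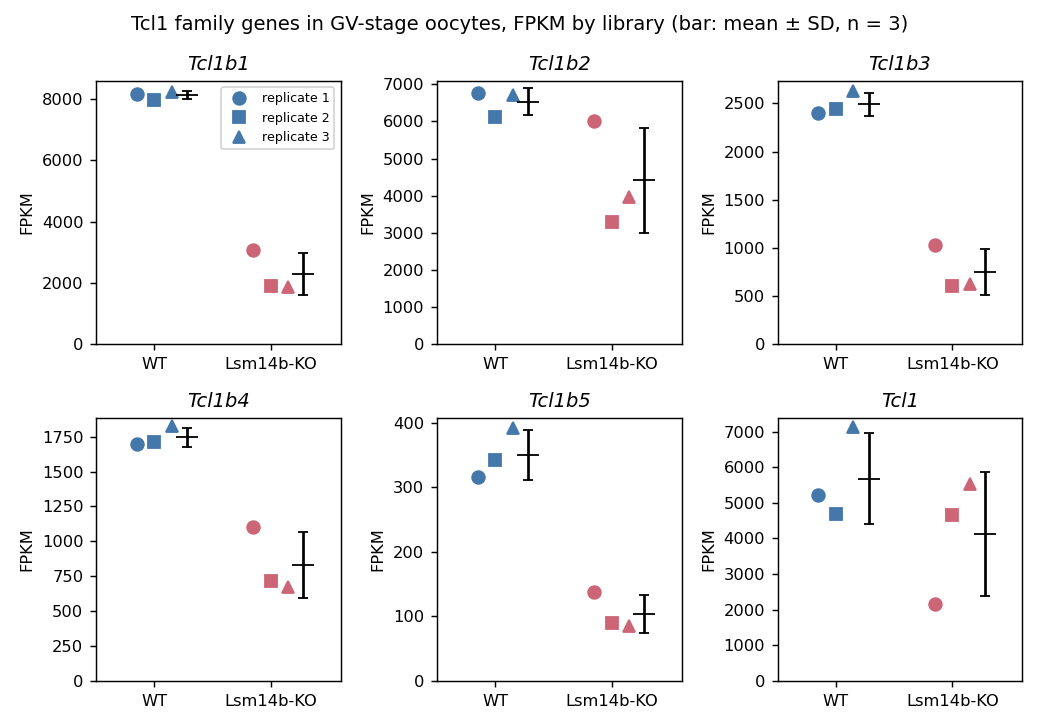
FPKM of each Tcl1 family gene in the 3 WT (blue) and 3 Lsm14b-KO (red) libraries, with 1 symbol per replicate number, on linear axes that start at 0; black bars are the mean ± SD. For Tcl1b1 the WT libraries sit at 7983 to 8245 FPKM and the Lsm14b-KO libraries at 1880 to 3083 FPKM, whereas for Tcl1 the groups overlap.

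Of the 6 members, 4 were called lower and none was called higher in Lsm14b-KO. Among all 6398 tested genes, 15.2% were called lower and 6.38% higher, and 2518 genes had an unadjusted p under 0.05. For 5 of the 6 members the highest Lsm14b-KO library was below the lowest WT library, which was so for 26% of tested genes, while the opposite order was seen in 19.1% of tested genes and in no member. The median log2 fold change was -1.44 over the members and -0.08 over all tested genes. Summed over the family, FPKM were 24552, 23278 and 26935 in WT and 13526, 11249 and 12742 in Lsm14b-KO. As a share of all FPKM the groups overlapped, at 1.97%, 1.99% and 2.36% in WT and 1.31%, 1.99% and 1.88% in Lsm14b-KO. The sum depends little on how reads shared between members were split, provided that each was counted once, which was not tested. Less of these mRNAs per oocyte cannot be told apart from fewer oocytes that contain them, since each library pools 20 oocytes.

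Because FPKM are relative values, the members were also fitted after other scalings. With every library scaled to the same FPKM sum, the median log2 fold change of all tested genes moved from -0.08 to 0.40, and the calls changed from 15.2% lower and 6.38% higher to 7.6% lower and 13% higher. Tcl1b1, Tcl1b3 and Tcl1b5 remained called lower there, with log2 fold changes of -1.18, -1.08 and -1.09. Tcl1b2 and Tcl1 turned slightly positive, at 0.08 and 0.15, which is still below the median gene by 0.31 and 0.25 on the log2 scale. Quantile normalization gave the same 3 calls, with 11.5% of genes lower and 8.44% higher. A correction for transcript length and GC content also gave these 3 calls, with 12.5% of genes lower and 10.3% higher, and it moved the members' log2 fold changes up by 0.33 to 0.60. The members are short, at 1009 to 1398 nt against a median of 2259 nt, and how far length acts on their values was not tested otherwise. Median-ratio scaling kept all 4 calls, with 12.4% of genes lower and 9.72% higher. Tcl1b1 was called lower in all 16 alternative fits, with log2 fold changes from -2.11 to -1.17.

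**Figure D2:**
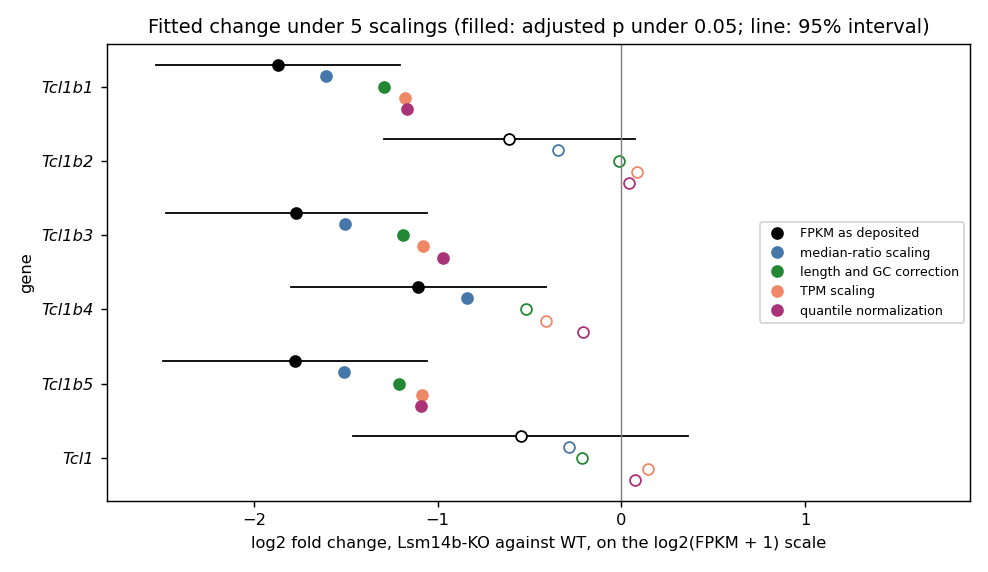
Fitted log2 fold change of each member, Lsm14b-KO against WT, with the deposited FPKM (black, line for the 95% interval) and under 4 other scalings or corrections (colours); filled symbols have a limma adjusted p under 0.05. Tcl1b1, Tcl1b3 and Tcl1b5 stay filled in all 5, Tcl1b4 only in 2 of them, and Tcl1b2 and Tcl1 in none.

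Along the chromosome, the 3 genes that fell most were next to each other. Tcl1b1, Tcl1b5 and Tcl1b3, the second to the fourth gene of the cluster, were at 0.281, 0.296 and 0.302 of their WT means. Tcl1b4, the next gene, was at 0.476, and the outermost genes Tcl1b2 and Tcl1 were at 0.676 and 0.725. With 6 genes in 1 cluster this order is a description only.

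**Figure D3:**
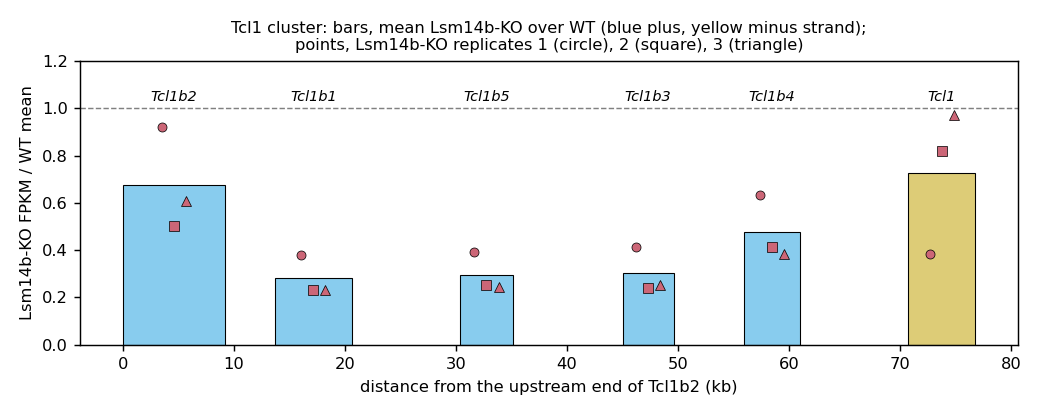
The Tcl1 cluster drawn to scale by distance from the upstream end of Tcl1b2 in kb; bar width is the length of the gene and bar height the Lsm14b-KO mean as a fraction of the WT mean, with the 3 Lsm14b-KO libraries as points. Tcl1b1, Tcl1b5 and Tcl1b3 stand at 0.281 to 0.302, Tcl1b4 at 0.476 and the outermost genes at 0.676 and 0.725.

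Ratios between members within a library do not depend on a factor that scales the whole library, and they moved unequally among the Tcl1b genes. The ratio of Tcl1b1 to Tcl1b2 was 1.21, 1.31 and 1.23 in WT and 0.513, 0.577 and 0.475 in Lsm14b-KO. Thus Tcl1b1 was above Tcl1b2 in every WT library and below it in every Lsm14b-KO library, Lsm14b-KO replicate 1 included. The log2 ratio differed by -1.26 between the groups (exact permutation test, two-sided p = 0.1, the smallest p that 3 against 3 libraries allow).

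The other Tcl1b genes were also lower relative to Tcl1b2. The ratio of Tcl1b3 to Tcl1b2 was 0.382 ± 0.0233 in WT and 0.171 ± 0.0127 in Lsm14b-KO (n = 3 each), a log2 difference of -1.16. The ratio of Tcl1b5 to Tcl1b2 went from 0.0537 ± 0.0061 to 0.0238 ± 0.00294, also a log2 difference of -1.16. For Tcl1b4 it went from 0.268 ± 0.015 to 0.191 ± 0.0251, a log2 difference of -0.49. In all 4 of these ratios every Lsm14b-KO library lay below every WT library. The same was so for the ratio to Tcl1b2 of 12.5% of 6397 tested genes.

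Among themselves Tcl1b1, Tcl1b3 and Tcl1b5 held nearly constant proportions. The ratio of Tcl1b3 to Tcl1b5 was 7.15 ± 0.447 in WT and 7.21 ± 0.38 in Lsm14b-KO, and that of Tcl1b1 to Tcl1b3 was 3.27 ± 0.126 and 3.05 ± 0.0809. Both ratios overlapped between the groups. The ratio of Tcl1b3 to Tcl1b4 did not overlap: it was 1.43 ± 0.012 in WT and 0.90 ± 0.0527 in Lsm14b-KO, so that Tcl1b3 was above Tcl1b4 in WT libraries and below it in Lsm14b-KO libraries. In all, 7 of the 10 ratios among Tcl1b genes did not overlap between the groups. Each of the 7 was a ratio to Tcl1b2 or to Tcl1b4, so they are not independent. The share over all tested genes was computed only for ratios to Tcl1b2 (12.5%), so the count of 7 has no such share beside it. The 10 pairs among Tcl1b genes were added after the values had been seen. Over all 15 pairs the lowest Benjamini-Hochberg adjusted p of the exact permutation test was 0.214, so none could pass in a design of this size.

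Relative to Tcl1, no Tcl1b gene separated the groups. The ratio of Tcl1b1 to Tcl1 was 1.57, 1.70 and 1.15 in WT and 1.42, 0.407 and 0.340 in Lsm14b-KO, so Lsm14b-KO replicate 1 lay within the WT range and the other two far below. The log2 difference was -1.32 (exact permutation test, two-sided p = 0.2, adjusted p = 0.5 over the 5 ratios to Tcl1). All 5 of these ratios overlapped between the groups, and their log2 differences ran from -1.32 for Tcl1b1 to -0.06 for Tcl1b2. Accordingly, the share of Tcl1b genes in the family's FPKM was 78.8%, 79.8% and 73.5% in WT and 83.9%, 58.6% and 56.7% in Lsm14b-KO.

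**Figure D4:**
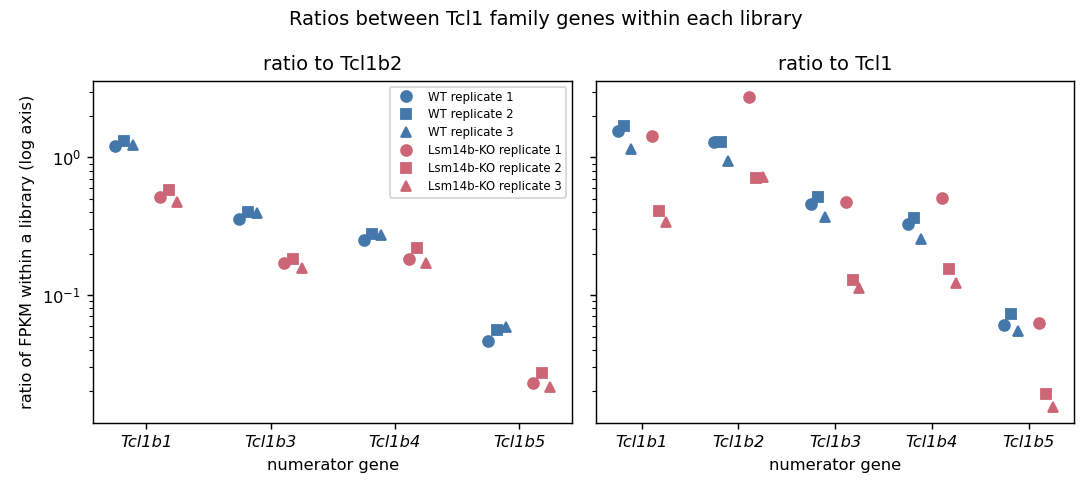
Ratios of FPKM between family members within each library on a log axis, to Tcl1b2 (left) and to Tcl1 (right); blue symbols are WT and red symbols Lsm14b-KO, 1 symbol per replicate number. On the left all Lsm14b-KO libraries lie below all WT libraries for each gene, with Tcl1b1 going from 1.21 to 1.31 down to 0.475 to 0.577, and on the right Lsm14b-KO replicate 1 lies within or above the WT values.

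Mtcp1, a paralog of the members, lies outside the cluster on the X chromosome. It was at 324, 295 and 305 FPKM in WT and at 267, 118 and 144 FPKM in Lsm14b-KO, without overlap. Its log2 fold change was -0.89 (SE 0.36, limma adjusted p = 0.111). Its values are uncertain, because its locus shares exons with Cmc4.

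Genes that act with the family's proteins were mostly at low levels. Of 21 listed genes of the AKT pathway, 8 reached 1 FPKM in at least 1 library and were tested, and none was called in either direction. Of these 8, 4 reached 1 FPKM only in Lsm14b-KO libraries. Fitted directions are therefore given gene by gene, and counts of those called higher are not read as a direction of the pathway. The most abundant was Mapkap1, a subunit of the mTORC2 complex that phosphorylates AKT, at 33.5 ± 3.98 FPKM in WT and 32.8 ± 11.4 FPKM in Lsm14b-KO. Foxo1, a transcription factor that AKT inhibits, was at 3.01 ± 0.178 and 5.39 ± 1.24 FPKM (log2 fold change 0.65, limma adjusted p = 0.0639). Pdpk1, the kinase that activates AKT, was at 0.879 ± 0.218 and 1.65 ± 0.40 FPKM (log2 fold change 0.49, limma adjusted p = 0.120). Pik3r1, a regulatory subunit of PI3 kinase, was at 0.459 ± 0.12 and 2.03 ± 1.32 FPKM (log2 fold change 0.96, limma adjusted p = 0.0672). It is 1 of the 4 genes that reached 1 FPKM only in Lsm14b-KO libraries. The filter thus kept Pik3r1 through the group where it was high, and its fit is not read as a rise. Cdkn1b, a cell cycle inhibitor that AKT phosphorylates, was at 1.13 ± 0.531 and 1.07 ± 0.271 FPKM. Akt1 and Akt2 stayed below 1 FPKM in all libraries. With all libraries scaled to 1 FPKM sum, or with median-ratio scaling, 2 of the 8 were called higher, where 13% and 9.72% of all tested genes were.

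Few genes around the cluster could be tested. Within 1 Mb of the cluster the table lists 27 other genes, of which 6 were tested, and none of these was called lower, where 15.2% of all tested genes were. In the fit 4 of the 6 were lower, as were 3401 of all 6398 tested genes. For Glrx5 and Snhg10 every Lsm14b-KO library lay below the lowest WT library, which was so for 26% of tested genes. Dicer1, which encodes the nuclease that makes small RNAs, was at 15.8, 17.2 and 24.2 FPKM in WT and at 26.7, 122 and 96.4 FPKM in Lsm14b-KO. Its Lsm14b-KO libraries all lay above the highest WT library, which was so for 19.1% of tested genes. Dicer1 was called higher (log2 fold change 1.81, SE 0.55, limma adjusted p = 0.0496). This call was lost when WT replicate 1, 2 or 3 or Lsm14b-KO replicate 2 or 3 was left out. Glrx5, a glutaredoxin of iron-sulfur cluster synthesis and the most abundant of the 6, was at 199 ± 13.4 FPKM in WT and 163 ± 31.2 FPKM in Lsm14b-KO (log2 fold change -0.30, limma adjusted p = 0.453). Papola, Vrk1 and Snhg10 had means under 5 FPKM in both groups, with log2 fold changes of 0.24, -0.40 and -0.91 and limma adjusted p of 0.492, 0.311 and 0.0527.

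Among 2554 other tested genes with a mean of at least 5 FPKM, 5 had the profile across the 6 libraries nearest to the mean profile of the family. These were Tfb1m, Rpf1, H2afj, Med27 and Cox14, at root mean square distances of 0.0876 to 0.117 on the log2 scale. Med27, a Mediator subunit, was the most abundant of them, at 502, 517 and 561 FPKM in WT and at 243, 196 and 243 FPKM in Lsm14b-KO. The members themselves lay at distances from 0.166 for Tcl1b4 to 0.756 for Tcl1, so their mean profile describes Tcl1 least well.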

How the data were processed

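RNA from WT and Lsm14b-KO GV-stage FGOs was sequenced as pairs of 150 bp after Smart-seq2 amplification. The labels name different library kits in different places and give no strand. The authors aligned reads to mm10 with TopHat2 (version 2.0.13). For the later steps the tools named are Cufflinks (version 2.2.1), Cuffnorm and Cuffdiff. Whether these steps scaled the deposited FPKM values between libraries was not tested. The annotation the authors used is not given in the sources used here. The deposited p-values, q-values and log2 fold changes of the authors' own comparison were not used. The table holds no counts, so depth and counting intervals cannot be given. Genes above 0 numbered 10305 to 10553 in WT and 10926 to 11733 in Lsm14b-KO libraries.

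Groups and replicate numbers came from sample titles and genotype labels. Values were transformed to log2(FPKM + 1), and the 6398 genes that reached 1 FPKM in any library were fitted in limma 3.58.1 under R 4.3.3, by eBayes moderation of lmFit coefficients with the trend option and no covariate beside genotype. Tests were two-sided, with Benjamini-Hochberg adjustment over all tested genes and a threshold of 0.05. Ratios were tested by exact permutation (SciPy 1.17.1). The fit was checked on simulated data. The members, gene lists and rules were chosen with earlier results of these data known. Named genes were the members, Lsm14b, Mtcp1, those of the AKT pathway and of the genes within 1 Mb of the cluster that passed the threshold or were among the 5 most abundant, and the 5 genes nearest in profile. Akt1, Akt2 and the marker genes given with values were named beyond that rule after their values were seen. Transcripts and coding sequences came from GENCODE vM21 and promoters from RefSeq. Length and GC content were found for 6321 (98.8%) of the tested genes. The alternatives tried were other pseudocounts, filters and scalings, a length and GC correction, a fit without the trend, a replicate block and leaving out each library.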

Additional observations from a re-analysis of the deposited data

How the results depend on the processing

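Among the members, only Tcl1 and Tcl1b2 changed sign in any alternative fit: after TPM scaling (every library at 1 FPKM sum) the log2 fold change of Tcl1 was 0.15 and that of Tcl1b2 was 0.0837, and after quantile normalization that of Tcl1 was 0.07 and that of Tcl1b2 was 0.0427. Tcl1b4 was called in 6, Tcl1b5 in 13, Tcl1b3 in 12 and Tcl1b1 in all of 16 alternatives. The count of members called lower was 3 to 4 under every other pseudocount, filter, scaling or correction. In those fits 3.78% (no filter on low values) to 24.6% (at least 5 FPKM in 1 library) of all tested genes were called lower. Leaving out 1 library gave 1 to 5 members called lower, and the share of all tested genes called lower moved with it. It was 2 members without WT replicate 1 (5.16% of all tested genes). It was 1 member without WT replicate 2 (5.22%), WT replicate 3 (5.94%) or Lsm14b-KO replicate 3 (4.31%). Without Lsm14b-KO replicate 2 it was 3 members (10.5%), and without Lsm14b-KO replicate 1 it was 5 members (27.3%). Each such fit has fewer samples.

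The log2 ratio of the summed family FPKM, -0.99 with the deposited values, was -0.28 after scaling to 1 FPKM sum, -0.73 with median-ratio scaling and -1.05 to -0.92 with 1 library left out. The mean log2 ratio of the Tcl1b genes to Tcl1, -0.88, was -0.69 when the Tcl1b genes were summed first and -1.52 (without Lsm14b-KO replicate 1) to -0.50 (without Lsm14b-KO replicate 3) with 1 library left out, and the ratio of Tcl1b2 to Tcl1 ranged from -0.72 to 0.27 with 1 library left out, at 0.02 without WT replicate 1 or WT replicate 2, 0.27 without Lsm14b-KO replicate 2 and 0.26 without Lsm14b-KO replicate 3. The cause was not tested.

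AKT pathway genes called higher numbered 1 at a pseudocount of 0.1 or 0.01, where 6.27% and 4.8% of all tested genes were called higher. They numbered 2 after scaling to 1 FPKM sum or with median-ratio scaling (13% and 9.72% of all tested genes). With 1 library left out they numbered 0 to 4, with 4 without Lsm14b-KO replicate 1, where 18% of all tested genes were called higher. Of the 8 tested, 4 reached 1 FPKM only in Lsm14b-KO libraries, so these counts are not read as a direction of the pathway. Among genes around the cluster, none was called higher at a pseudocount of 0.1 or 0.01. The same was so with no filter on low values, where 1.24% of all tested genes were called higher. With 1 library left out, 0 to 1 were called higher and 0 to 1 lower. In those fits 0.61% to 18% of all tested genes were called higher and 4.31% to 27.3% lower.

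Deviations of same-numbered libraries had correlations of 0.19, -0.13 and 0.02, within the range of unlike-numbered ones (-0.28 to 0.31). With 3 libraries per genotype these values cannot show whether the numbers pair samples. With the replicate number as a block, 3 members and 13.9% of all tested genes were called lower, and Tcl1b4 (log2 fold change -1.10, limma adjusted p = 0.0738) was not.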
